A study of Mus musculus with 2 samples.

Results

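A splice junction is the point in a spliced RNA where sequencing reads jump from the last base of one exon to the first base of the next, and it marks both borders of the removed intron. Described here are the junctions of mouse bladder with 1 new splice site: junctions with at least 10 reads of which exactly 1 end is the end of an annotated intron, while the other end is not. Of 1061777 junctions in the deposited table, 187590 had at least 10 reads, and 16437 of these had 1 known and 1 new end. The members were chosen by their read counts, summed over both libraries, and by their absence from the annotation, so the reads of a member are a description and no test was made on them. Just inside the limit, 1421 junctions with 1 new end had 10 reads, and just outside it 1700 had 9 reads. An end counted as known when a transcript of Ensembl release 65 on the mm9 genome build had an intron border at that position and on that strand. The series holds 1 group: urinary bladder of C57BL/6J mice at 8 weeks of age, a wild-type strain without treatment in the labels, taken from littermates of both sexes. Its 2 libraries, labelled biological replicates 1 and 2, were made from polyadenylated RNA and keep strand information. Both name the same donor entry, so the spread between them may be partly technical, and no comparison between conditions is possible. The junction table gives reads for 2 libraries without saying which replicate each is, so they are called the first and the second library.

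An intron is removed after the U1 and later the U6 small nuclear RNAs pair with its 5′ splice site, which nearly always begins with GT, and after U2AF binds the pyrimidine-rich tract and the AG of its 3′ splice site. Moving a 5′ splice site changes where the upstream exon ends, and moving a 3′ splice site changes where the downstream exon begins. Where a shifted site lies a few bases from the annotated one, the protein may gain or lose a residue or change its reading frame. Where a new 3′ and a new 5′ site lie close together inside an intron, they bound an additional exon, a form of splicing well known in contractile proteins of smooth muscle.

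The sequences below were taken from GENCODE M21 transcripts on mm10 in which the same exon border was found by exon and intron lengths, while junction coordinates are those deposited on mm9. The first set shows tandem 3′ splice sites, the commonest kind of new site near a known one. It gives the junctions of most reads whose new 3′ site lies 3 bases inside the annotated exon. Each line runs from the end of the upstream exon into the downstream exon, and the capitals mark the 3 bases that the new site leaves out.
Cfd: cggctgtatgtgCAGcacagccccgag
Fau: tccgcgggctagTAGccaacatgcagc
Rpl22l1: aacatggcgccgCAGaaagacaagaag
Psap: gacccctatgagCAGaatctggtccag
Pcbp2: aaggctattgggCAGgtttggatgcat
Rbm8a: gctttggctccgAAGaggggtcccgag
The junctions are chr10:79353726-79354203 (Cfd, plus strand), chr19:6058002-6058245 (Fau, plus), chr3:28704466-28705424 (Rpl22l1, plus), chr10:59761978-59762214 (Psap, plus), chr15:102319246-102320185 (Pcbp2, plus) and chr3:96434285-96434402 (Rbm8a, plus). In 2 of these genes an M21 transcript keeps the intron, so the bases before the annotated border are also known. There the capitals mark the AG that ends the intron at the new site.
Fau with intron: ttcttccttcagtAGccaacatgcagctct
Rpl22l1 with intron: aattatgtctagcAGaaagacaagaagcct
In both lines another AG, which ends the annotated intron, stands 3 bases before the capitals.

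The second set shows new 5′ splice sites inside annotated exons, with the first 2 intron bases of the new site in capitals and 15 bases on either side of the cut.
Myadm: ccactgcctggagagGTaaagctgcaggga
Upk2: ctcagcgcatatcagGTgacaaacctaaca
Cd151: ttcaaagcgtggttgGTgagtgctccgtga
Atp2a2: acctggaacaacccgGTaaagagtgtgtgc
Ndufs8: ccgcagcacttcaagGTgggtggccagggc
Eif4a2: ataaagagcgagtcgGTatttatatttgat
Ubl5: aagtccgcgttaagtGCaagtatccaccga
The first 6 begin with GT and Ubl5 with GC. In Eif4a2 (chr16:23112535-23113239, plus) the new site lies 4 bases downstream of the known one, and in Ubl5 (chr9:20449700-20449849, plus) 4 bases upstream, where the next GT in the line is the known site. The other junctions are chr7:3290632-3293203 (Myadm, plus), chr9:44261637-44261909 (Upk2, minus), chr7:148653366-148654317 (Cd151, plus), chr5:122904314-122907311 (Atp2a2, minus) and chr19:3911747-3912709 (Ndufs8, minus).

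The third set shows new internal exons that M21 records inside a reading frame, with the exon in capitals and 10 bases of the neighbouring exons in lower case. For Myl6 only the 26 coding bases of a 45-base exon are given, because its reading frame ends within that exon.
Myh11: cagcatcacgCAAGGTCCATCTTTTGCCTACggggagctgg
Myl6: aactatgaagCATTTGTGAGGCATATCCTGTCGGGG
Camk2g: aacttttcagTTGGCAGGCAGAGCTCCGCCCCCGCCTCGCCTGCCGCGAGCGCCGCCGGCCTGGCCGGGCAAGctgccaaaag
Stim1: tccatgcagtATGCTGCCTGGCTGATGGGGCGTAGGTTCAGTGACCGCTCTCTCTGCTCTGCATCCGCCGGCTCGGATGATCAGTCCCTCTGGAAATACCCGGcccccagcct
The exons lie at chr16:14248673-14248693 (Myh11, minus, 21 bases), chr10:127928776-127928820 (Myl6, minus, 45 bases), chr14:21576888-21576950 (Camk2g, minus, 63 bases) and chr7:109577288-109577380 (Stim1, plus, 93 bases).

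New 5′ and new 3′ splice sites were about equally frequent. Of the 16437 junctions, 8309 had a new 5′ site and 8128 a new 3′ site, a share of new 5′ sites of 50.6% (exact binomial 95% interval 49.8 to 51.3, counting error only). By reads the balance was the same in each library: new 5′ sites took 51.0% of the member reads in the first library and 51.1% in the second. The junctions used 8098 different new 5′ sites and 7921 different new 3′ sites. Most members were rare, with a median of 20 reads for new 5′ sites (quartiles 13 and 41) and 19 for new 3′ sites (quartiles 13 and 39), and the most frequent reached 23254 reads. The canonical motif flag of the table was set for 94.7% of new 5′ and 94.1% of new 3′ members, and 443 and 477 members lacked it.

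New 3′ sites lay closer to a known site than new 5′ sites. The median distance to the nearest known site of the same kind was 66 bases for new 3′ sites (quartiles 6 and 818) and 302 bases for new 5′ sites (quartiles 45 and 1255). Within 3 bases lay 16.3% of new 3′ sites and 4.62% of new 5′ sites, and within 12 bases 29.3% and 14.1%. The shares were 39.5% and 21.3% within 30 bases, 54.7% and 33.7% within 100 bases, and 77.1% and 72.0% within 1000 bases. Of the 7243 members within 100 bases, 27 lay across another known site, so that the nearest site belonged to another exon. Of the 12252 members within 1000 bases, 1782 did. A longer distance is thus not always a shift of the border of the same exon. The order of the medians held in all 13 settings in which it was computed, each library alone included.

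The distances were not smooth near 0. A shift of 3 bases downstream was the commonest of all, with 682 new 3′ sites. It shortens the exon by the length of 1 codon, whether or not the bases are coding. A shift of 4 bases downstream followed with 390, 3 bases upstream with 241 and 5 bases downstream with 225. Next came 1 base downstream with 147, 2 bases downstream with 135 and 6 bases downstream with 109. At 7 bases downstream only 24 remained. For new 5′ sites the peaks lay 4 bases downstream (140 sites) and 4 bases upstream (118 sites), against 43 at 5 bases downstream and 22 at 3 bases downstream. Close behind these peaks were 1 base downstream (113) and 1 base upstream (110), and 2 bases upstream held 74. Sites 1 base from a known site formed a separate kind: of 223 such new 5′ sites and 243 such new 3′ sites, 5 and 10 carried the canonical motif flag.

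**Figure D1:**
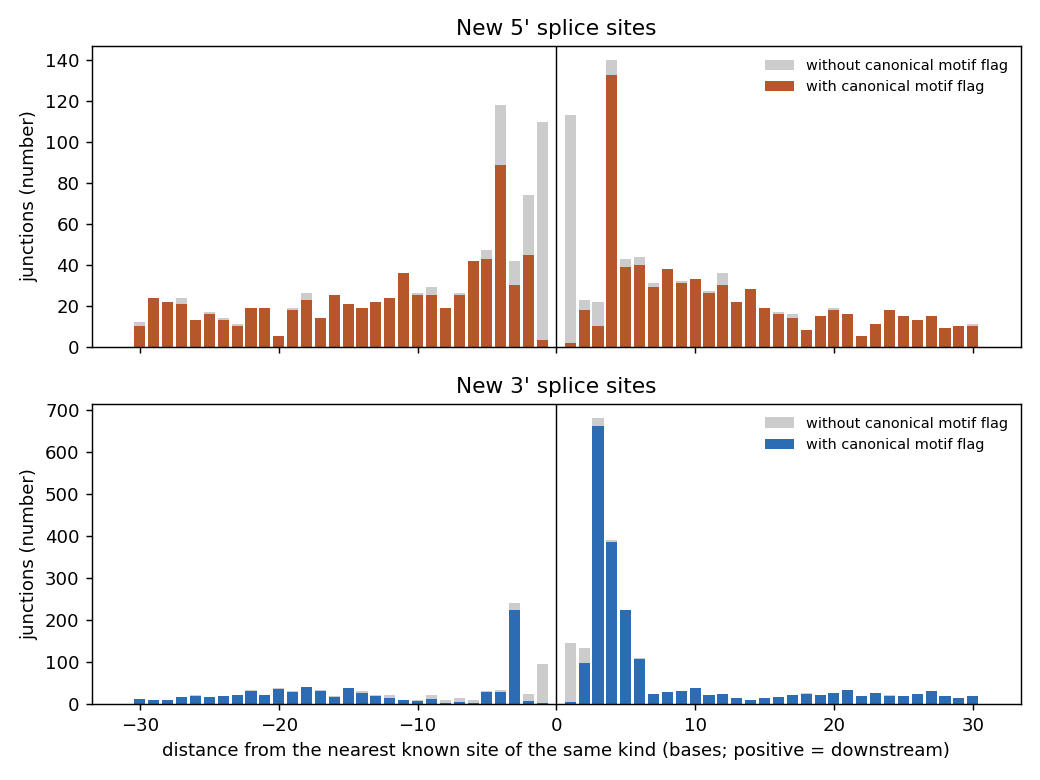
Number of junctions (vertical axis) at each distance in bases from the nearest known splice site of the same kind (horizontal axis, positive downstream along the transcript), for new 5′ sites above and new 3′ sites below; coloured bars carry the canonical motif flag and grey bars do not. New 3′ sites peak at 3 bases downstream with 682 junctions and new 5′ sites at 4 bases downstream with 140.

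Among sites within 100 bases of a known site, 41.5% of new 3′ shifts (1846 of 4444) and 29.4% of new 5′ shifts (823 of 2799) were a multiple of 3, the length of a codon. The shortest shifts, from 1 to 9 bases, made the difference between both sides. From 10 to 100 bases the share was 34.0% for new 3′ sites in exons (95% interval 31.5 to 36.6, 1414 sites) and 33.5% for new 5′ sites in exons (30.7 to 36.5, 1079 sites). Over that range the intervals of both sides overlap.

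The triplet left out by the 3-base shift could be read in 672 sites inside exons. It was CAG in 349 (51.9%), AAG in 204 (30.4%), TAG in 55 (8.18%) and GAG in 46 (6.85%). Of the 6 genes printed above, 4 carry CAG, Fau carries TAG and Rbm8a AAG.

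The new sites lay inside introns more often than inside exons, and the split differed between the ends. Of new 5′ sites, 5211 (62.7%) lay in an intron of the gene that holds the known end, 2315 (27.9%) in an exon and 783 (9.42%) upstream of the annotated gene. Of new 3′ sites, 3675 (45.2%) lay in an intron, 3827 (47.1%) in an exon and 626 (7.70%) downstream of the gene. New 3′ sites in exons were close to the known site, with a median distance of 12 bases, against 454 bases for those in introns. New 5′ sites upstream of the gene had a median relative use of 13.7%, the highest of these 6 classes. Of the 1409 new sites outside the gene, 309 (21.9%) lay within another annotated gene on the same strand.

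Sequence around new sites inside exons could be read for 1588 new 5′ and 2115 new 3′ sites with the motif flag and 15 bases of transcript on both sides. The base before the GT was G at 74.2% of the new 5′ sites, against 26.5% of the 15739 other GT within 100 bases of them. Intron base 3 was A or G at 82.7% against 53.7%, intron base 4 was A at 43.8% against 20.3%, and intron base 5 was G at 65.3% against 26.6%. These are the positions at which U1 RNA pairs with the 5′ splice site. At new 3′ sites the base before the AG was C or T in 83.8%, against 45.1% of the 30224 other AG within 100 bases, and G in 3.74% against 28.9%. At least 8 of the 12 bases before that were pyrimidines at 67.6% of the new 3′ sites and 19.8% of the other AG. A new 3′ site fewer than 15 bases inside its exon was read only where an M21 transcript keeps the bases before that exon. There the 12 bases can overlap the tract of the known site. The windows share transcripts, so these shares are a description without a test.

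Relative use sets a new junction against its competitors: it is the reads of the member as a percentage of the reads of all junctions that share its known end. The median was 4.55% over all 16437 members (quartiles 1.56 and 14.4), 4.84% for new 5′ and 4.25% for new 3′ sites. Below 5% lay 8595 members, and above 50% lay 1246, of which 693 had a new 5′ and 553 a new 3′ site. The libraries gave like values: among the 1529 members with at least 100 reads, relative use differed between them by a median of 2.07 percentage points, and by over 10 points in 94. Of 387 such members used above 50%, 367 were above 50% in each library.

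Relative use differed with distance. New 3′ sites 3 bases upstream of the known one had a median of 14.9% (quartiles 6.56 and 35.2) and those 3 bases downstream 6.33% (2.24 and 17.8), against 2.41% (1.09 and 6.41) at 4 bases downstream. New 3′ sites 1 base downstream stood at 0.0635%, but those 1 base upstream at 3.23%. For new 5′ sites the medians were 3.73% at 4 bases downstream and 3.57% at 4 bases upstream. They were 0.067% at 1 base upstream, but 3.52% at 1 base downstream. A minimum of 10 reads lets a low relative use appear only at known ends with many reads.

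**Figure D2:**
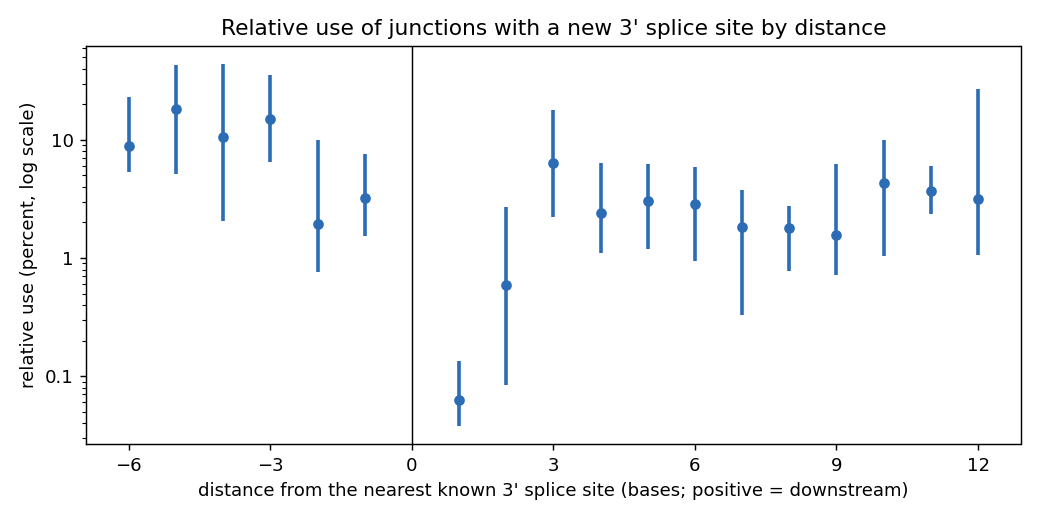
Relative use in percent (vertical axis, log scale) of junctions with a new 3′ splice site against distance in bases from the nearest known 3′ site (horizontal axis, positive downstream); points are medians and bars run from the lower to the upper quartile. The median is 14.9% at 3 bases upstream and 6.33% at 3 bases downstream, and falls to 0.0635% at 1 base downstream.

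Member junctions were found in 6949 genes, 3225 of which held 1 member and 108 at least 10. The 25 genes with most member reads held 23.1% of these reads, and the first of them, Myh11 and Myl6, held 8.84% together. Genes with more spliced reads held members more often: 22.7% of genes with 10 to 1000 reads on annotated junctions had a member, 53.3% of those up to 10000, 76.6% of those up to 100000 and 95.8% of the 95 genes above. The share of reads on new junctions went the other way, from 3.85% in the lowest of these classes to 0.487% in the highest.

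**Figure D3:**
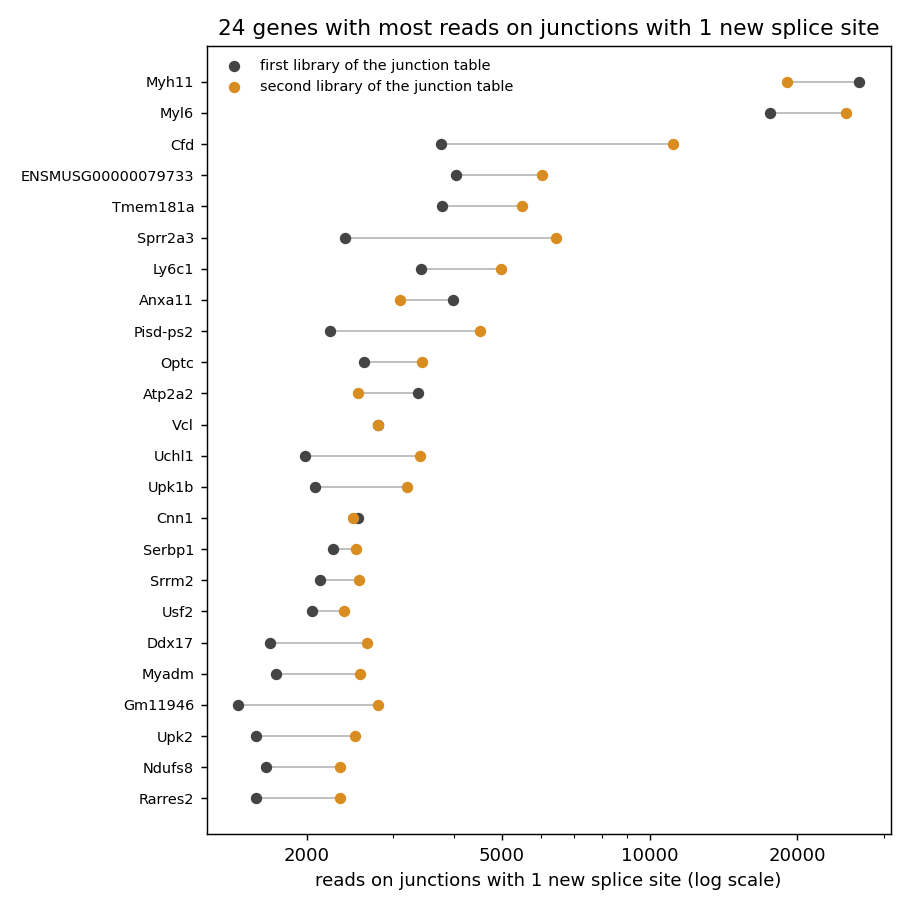
Reads on junctions with 1 new splice site (horizontal axis, log scale) in the first (dark) and second (orange) library of the junction table, for 24 of the 25 genes with most such reads (vertical axis). Myh11 lies highest in the first library with 26787 reads, while Cfd has 3756 and 11168 reads, the widest gap in reads after Myh11 and Myl6.

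Contractile genes led the list. Myh11, the heavy chain of smooth muscle myosin (1642 ± 666 TPM, SD, n = 2), held 40 members with 26787 reads in the first and 19035 in the second library. Most of them came from 1 pair of junctions that bound the 21-base exon printed above. The junction into it (chr16:14248694-14250614) had 12710 and 8840 reads, and the junction out of it (chr16:14246913-14248672) 13523 and 9731. The junction that skips it, with both ends known, had 349 and 233 reads. Inclusion is the mean of both flanking junctions as a percentage of that mean plus the skipping reads, and leaves out other junctions at the same ends. It was 97.4% in the first library and 97.5% in the second. Reads of the exon were thus lower in the second library while its inclusion differed by less than 1 percentage point. An exon of this kind distinguishes the SM-B from the SM-A forms of the myosin head. In whole tissue fewer cells of a type and less RNA per cell cannot be told apart.

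Myl6, the essential light chain of smooth and non-muscle myosin (7339 ± 474 TPM, n = 2), held 26 members with 17596 and 25197 reads. Its most read member (chr10:127929802-127929994, minus) had a new 5′ site in an intron, 337 bases upstream of the nearest known one, with 8391 and 12671 reads. Its relative use was 35.6% in the first and 53.03% in the second library, a wider gap than the 90th percentile of 8.32 points over members with at least 100 reads. The 45-base exon had 3498 and 5069 reads on the junction into it, 2947 and 4148 on the junction out of it, and 3721 and 4180 on the junction that skips it. Its inclusion was 46.4% in the first and 52.4% in the second library. A second exon of 58 bases (chr10:127928346-127928403), not a multiple of 3, was included at 16.8% and 17.2% against the same skipping junction. Each inclusion leaves out the reads of the other exon. The ends of Myl6 light chains are known to differ between smooth muscle and other cells through an alternative last coding exon.

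Vcl, vinculin of dense plaques (169 ± 10.3 TPM, n = 2), had a new 204-base exon at chr14:21846305-21846508 on the plus strand. The junction into it had 1124 and 982 reads, the junction out of it 1668 and 1806, and the skipping junction 545 and 857. Inclusion was 71.9% in the first and 61.9% in the second library. Muscle is known to make metavinculin, a longer vinculin with 1 additional exon. M21 held the junction into this exon but not the junction out of it. No exon of this length was matched there, so its sequence is not given.

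Other new exons with many reads spanned a wide range of inclusion. Svil, the actin and myosin binding supervillin, included a 48-base exon at 73.7% and 67.6%. Camk2g, a calcium/calmodulin-dependent kinase, included its 63-base exon at 43.5% and 43.7%. Flna, the actin crosslinker filamin A, held the most members of any gene, 49, but its new 57-base exon was included at only 5.58% and 7.85%. Stim1, the calcium sensor of the endoplasmic reticulum, included its 93-base exon at 46.0% and 47.9%. In the actin-binding protein Tagln, a 79-base exon with 266 and 397 reads on its first junction reached 0.306% and 0.298%, against 106742 and 126029 skipping reads.

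**Figure D4:**
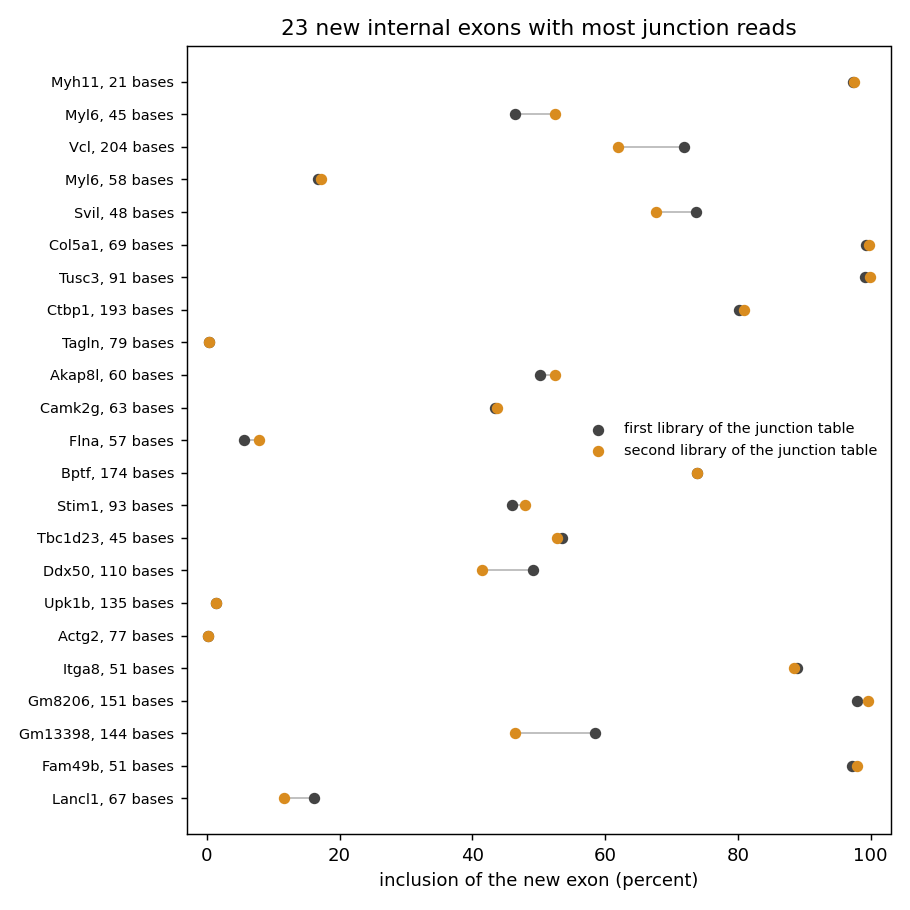
Inclusion in percent (horizontal axis) of 23 of the 24 new internal exons with most junction reads (vertical axis, gene and exon length) in the first (dark) and second (orange) library of the junction table. Values run from below 1% in Tagln and Actg2 to above 97% in Myh11, Col5a1, Tusc3, Gm8206 and Fam49b, of which Myh11 alone had over 97% relative use at both flanking junctions, and the libraries lie close together for most exons, with the widest gap in Gm13398.

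Across all genes, 1168 pairs of members bounded a new exon of at most 300 bases that lay wholly within an intron and overlapped no annotated exon. In 1023 of them, in 901 genes, the reads of both flanking junctions were within 3-fold of each other, and their median length was 95 bases. A multiple of 3 was the length of 413 (40.4%, exact binomial 95% interval 37.3 to 43.4). This share was 44.3% (39.2 to 49.4) among 384 exons with an inclusion of at least 10% and 38.1% (34.3 to 42.1) among 611 below it, and the intervals overlap. Where a skipping junction with both ends known was read, the median inclusion was 6.38%, and 89 exons exceeded 50%. Col5a1, a fibrillar collagen chain, included a 69-base exon (chr2:27884617-27884685) at 99.3% and 99.8%, with 819 and 496 reads on the junction into it and 5 and 1 skipping reads. That junction took only 45.02% and 44.21% of the reads at its known end, so most reads there lay on neither the junction into the exon nor the skipping one. Tusc3, a subunit of oligosaccharyltransferase, was alike, with 99.2% and 99.9% inclusion of a 91-base exon and 49.8% and 49.9% relative use. Both flanking junctions of Tusc3 had reads equal, within 5% in each library, to those of another junction at the same known end. The limit given below for such junctions holds for this exon, which is uncertain. Itga8, an integrin of smooth muscle, included a 51-base exon at 88.8% and 88.4%. Ctbp1, a transcriptional corepressor, included 193 bases at 80.2% and 80.9%, and Bptf, a chromatin remodelling subunit, 174 bases at 73.8% in both.

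Atp2a2, the calcium pump of the sarcoplasmic reticulum (301 ± 62.3 TPM, n = 2), had a new 5′ site inside an exon, 209 bases downstream of the nearest known one. The junction had 3348 reads in the first and 2521 in the second library and took 93.2% and 92.7% of the reads at its 3′ site. The forms of this pump are known to differ at their carboxyl end through alternative use of the last exons. Cnn1, calponin of thin filaments, held 13 members, and in the first of them the new 3′ site lay inside an exon, 115 bases before the nearest known 3′ site, which belongs to the next exon. That junction had 1280 and 1285 reads, but only 2.54% and 2.46% relative use, since 102537 reads shared its known end. Of the 18 smooth muscle genes listed, 16 held members (88.9%, 259 junctions), against 45.5% of all genes with an annotated junction of at least 10 reads, but 95.8% of genes above 100000 annotated reads, where the median of this list lies. At the listed genes new junctions took 0.615% of spliced reads, against 0.904% over all genes and 0.487% over genes above 100000 annotated reads. Myh11 alone held 45822 of the 70545 member reads of this list.

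Uroplakins, the membrane proteins of umbrella cells, held members at unlike relative use, set here against a median of 4.55% and an upper quartile of 14.4% over all members. Upk2 (867 ± 205 TPM, n = 2) used the 5′ site printed above, 32 bases inside the annotated exon, with 1533 and 2436 reads and 16.4% and 17.6% relative use. In Upk1b (791 ± 169 TPM, n = 2) a new 5′ site 2 bases upstream of the known one (chr16:38788176-38800262, minus) had 1318 and 1997 reads, or 10.5% and 11.1%. The first member of Upk1a, a 3′ site shifted by 4 bases, had 68 and 204 reads and reached 0.426% and 0.726%. Cd151, a tetraspanin of basal and other epithelial cells, used a 5′ site 118 bases inside an exon at 65.1% and 69.7% (1277 and 1975 reads). Of 11 superficial urothelium genes 9 held members (81.8%), and of 12 basal urothelium genes 7 (58.3%). The read classes in which the medians of these lists lie gave 76.6% and 53.3% over all genes, so both counts were near those of genes with like reads. New junctions took 1.29% and 0.0936% of their spliced reads, against 0.804% and 1.34% over all genes of these read classes. Single genes held much of both sums. Upk1b had 5282 and Upk2 4083 of the 12910 member reads of the superficial list. Lama3 had 168 of the 392 of the basal list.

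Cfd, the complement factor D made by adipocytes (313 and 677 TPM in replicates 1 and 2), held the third largest number of member reads. Its 3′ site shifted by 3 bases had 3718 reads in the first and 11109 in the second library, while relative use was 59.89% and 59.95%. The number of reads thus differed about 3-fold between the libraries, while the split between both 3′ sites was nearly equal. Over the adipocyte list member reads came to 3879 and 11405, over superficial urothelium to 4839 and 8071, and over smooth muscle to 38907 and 31638. Single genes carried the adipocyte and smooth muscle sums. Without Cfd the adipocyte list came to 123 and 237 reads, and without Myh11 the smooth muscle list to 12120 and 12603. These sums are not scaled to depth, and all members together had 444766 reads in the first and 557811 in the second library. Plin1, which coats lipid droplets, had a new 5′ site 56 bases inside an exon with 95 and 191 reads (73.1% and 81.6%). In the fibroblast list 14 of 15 genes held members (93.3%), led by Col5a1, against 95.8% of all genes in the read class of this list's median. Fn1, fibronectin, followed with a 3′ site 75 bases inside an exon at 8.78% and 8.65% (731 and 537 reads).

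The 3-base shift had its highest relative use, among the genes printed, in Rpl22l1, a ribosomal protein paralog. Its new 3′ site had 1003 and 1331 reads and took 99.2% and 99.3%. In Ralgapa1, a GTPase activating protein, the site 3 bases inside the exon was the only one read, with 266 and 348 reads. Fau, a ubiquitin-like ribosomal fusion protein, split its reads, with 1257 and 1621 reads (48.1% and 44.1%), as did Rbm8a, a subunit of the exon junction complex, with 457 and 525 reads (55.5% and 55.7%). The RNA-binding protein Pcbp2 had 637 and 495 reads (31.3% and 31.7%), and Psap, a precursor of lysosomal saposins, 1038 and 1227 reads (7.32% and 7.44%). Among these genes the libraries were farthest apart in Fau. Rpl22l1 had 163 TPM on mm10 but 1.06 RPKM on mm9, and Fau 1266 TPM but 10.8 RPKM. For Psap the values were 1135 TPM and 163.1 RPKM, a far smaller gap. The reason for the wide gap in Rpl22l1 and Fau was not tested, and their relative use, read on mm9, is uncertain. Upstream shifts of 3 bases were led by Rarres2, the chemoattractant chemerin, with 561 and 884 reads (29.7% and 30.1%), and Abcc3, a conjugate exporter, with 440 and 452 reads (72.1% and 69.7%).

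Shifts of 4 bases at the 5′ site spanned a wide range of relative use among the members with most reads. P2rx1, the ATP-gated channel of detrusor muscle, led those downstream with 348 and 385 reads (6.09% and 6.71%), ahead of Eif4a2, a translation initiation helicase, with 209 and 331 reads (5.36% and 6.67%). Further down by reads, Prkcsh stood at 17.2%, Clasrp at 55.6% and Otogl at 100% over both libraries. Serpina3n, a protease inhibitor, led those upstream with 272 and 344 reads (29.99% and 28.48%). In Adgrl2, an adhesion receptor, the site 4 bases upstream took 98.4% and 97.6% of the reads (182 and 159). Over both libraries Gm21988 followed at 9.32%, Ubl5 at 2.60% and Mmaa at 49.6%.

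Genes of the splicing machinery also held new junctions in their own transcripts. Of 14 genes for recognition of the 5′ splice site 9 held members, of 21 measured genes for the branch point and 3′ splice site 15, of 9 measured genes of the minor spliceosome 4, of 18 SR and related proteins 16, of 25 hnRNP and tissue regulators 22, and of 15 genes for nonsense-mediated decay 10. Over all genes with an annotated junction of at least 10 reads the share was 45.5%. In the read classes of these lists' medians it was 76.6% for the 5′ site, SR and hnRNP lists and 53.3% for the others. The 5′ site list (64.3%) and the minor spliceosome (44.4%) lay below their classes, and the other lists above. The part of spliced reads on new junctions was 2.86% for SR proteins, 2.68% for the minor spliceosome, 2.29% for hnRNP and tissue regulators, 1.71% for nonsense-mediated decay, and 0.781% and 0.674% for both recognition lists. Over all genes of these read classes the part was 0.804% for the 5′ site, SR and hnRNP lists and 1.34% for the others. Single genes held much of some sums. Srrm2 had 4685 of the 9419 member reads of the SR list, and Zmat5 709 of 1020 for the minor spliceosome. Rbm8a had 1002 of 1642 for nonsense-mediated decay.

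Srrm2, a scaffold of nuclear speckles, led the SR list with 14 members, and its first had 886 and 1024 reads (59.99% and 54.24%). Srsf7, an SR protein, used a 5′ site 9 bases inside an exon with 597 and 985 reads (59.1% and 54.0%). In Hnrnpc, which binds uridine tracts of introns, 24.5% of spliced reads lay on 8 members, the first with 390 and 591 reads (43.4% and 50.2%). Hnrnpa2b1 followed with 460 and 775 reads on its first member (53.0% and 67.6%), a wider gap than in the other members named here from these lists. The helicase Ddx17 shortened an exon by 6 bases in 55.4% and 57.7% of reads (1515 and 2397). Zmat5 of the minor spliceosome used a 5′ site 9 bases inside an exon at 45.2% and 47.8%, and Sf3b1 of the U2 particle a new 5′ site at 39.8% and 46.9%.

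Some new sites took nearly all reads at their known end. Among members with at least 1000 reads, Qsox1, a sulfhydryl oxidase, used a 5′ site 279 bases inside its exon at 99.7% and 99.8% (1123 and 1250 reads). Lmo1, a LIM domain protein, started from a new 5′ site upstream of the annotated gene at 99.5% and 98.8% (1526 and 2274 reads). Optc, a small leucine-rich matrix protein, used an intronic 5′ site at 98.6% and 99.3% (2447 and 3302 reads), which M21 does not hold. Mlf2, a nuclear protein, left out the first 21 bases of an exon at 95.7% and 95.2% (1502 and 1730 reads), and Ndufs8, a subunit of complex I, used its new 5′ site at 93.6% and 92.5% (1645 and 2306 reads). Serbp1, an mRNA-binding protein, had 2 new 3′ sites of lower use, 45 bases inside one exon at 73.8% and 74.7%, and 18 bases inside another at 40.01% and 41.20%. Over all members, 160 were the only junction read at their known end, and 16 of these had at least 100 reads. The 10 of these with most reads, 155 to 614, were in Ralgapa1, Fmnl2, Zzef1, Otogl, Penk, Lama2, Hmcn2, Gm7964, Art3 and Ptprz1. In 7 of the 10 the new site lay within 6 bases of a known one, and 4 lacked the motif flag (Fmnl2, Lama2, Gm7964 and Art3).

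Members without the canonical motif flag were different in kind. These 920 junctions lay a median of 2 bases from a known site, against 210 bases for the 15517 with the flag, and their median relative use was 0.768% against 4.82%. At new sites inside exons whose sequence could be read, all 1969 flagged new 5′ sites began with GT and all 3486 flagged new 3′ sites ended with AG. Of 166 unflagged new 5′ sites none began with GT, while 55 began with GC and 42 with GG. Of 130 unflagged new 3′ sites 7 (5.38%) ended with AG. A few unflagged junctions had many reads. Uchl1, a ubiquitin hydrolase of neurons, had 1975 and 3371 reads (80.1% and 72.8%) 12 bases upstream of the known 3′ site, and Rpl5, a ribosomal protein, 1315 and 1278 reads (64.0% and 65.6%) 3 bases upstream of the known 5′ site. Rnf4, Pitpna and Capn2 had over 98% relative use at unflagged sites 10, 8 and 12 bases from the known ones.

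Several genes with many member reads held junctions over very long introns or with the same number of reads as another junction at the same known end. Sequence copies were not compared here, so whether reads of near-identical copies were split among these junctions was not tested, and the junctions are uncertain. Tmem181a and ENSMUSG00000079733 on chromosome 17 held 9281 and 10076 member reads, and their leading members spanned 338578 to 379310 bases. Anxa11 had 16 members with introns of 139926 to 283122 bases, each with reads equal, within 5% in each library, to those of another junction at the same known end. Their median relative use was 33.2%. Both leading Usf2 members lay at 49.98% and 49.92% with introns of 20000 and 19996 bases. Among the 1529 members with at least 100 reads, 65 had such an equal partner. Such partners stood beside 43 of 178 members whose new site lay outside the gene (24.2%, 95% interval 18.1 to 31.1) and 5 of 558 with the new site in an exon (0.896%, 0.292 to 2.08). Among the other leading genes, Sprr2a3 and Ly6c1 belong to gene families and Pisd-ps2 is named as a pseudogene, and the same limit holds for them. Gm11946 held 20 members with 1448 and 2789 reads.

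Most new sites were read in both libraries. The first library had 53589498 junction reads and the second 60510166, and 181 of the 16437 members (1.10%) had reads in 1 library alone, against 0.119% of 151843 annotated introns with at least 10 reads. Members are rarer than annotated introns, so read ranges were matched. From 10 to 19 reads, 178 of 8126 members and 165 of 11152 annotated introns had reads in 1 library alone, and the authors' reproducibility value, low for like reads in both libraries, had medians of 0.013 and 0.007. From 20 to 49 reads, 3 of 4991 members and 16 of 18245 introns did, and both medians were 0.001. New junctions took 0.841% of the reads on junctions with at least 10 reads in the first library and 0.933% in the second.

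A later annotation held part of the new junctions. The known end of 15777 members (96.0%) could be placed in GENCODE M21, and 3146 of these (19.9%) were introns there, 21.3% for new 5′ and 18.6% for new 3′ sites. The share rose with reads, from 11.6% at 10 to 19 reads (95% interval 10.9 to 12.4) to 55.0% at 500 reads or more (48.0 to 61.9, 209 junctions placed). It was 21.01% with the motif flag and 2.23% without. Of the 1023 new exons with matched flanking reads, 309 (30.2%) were found there. The authors' assembled transcript models on mm9 contained the new site of 2009 members (12.2%), from 6.33% at 10 to 19 reads to 47.1% at 500 reads or more.

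**Figure D5:**
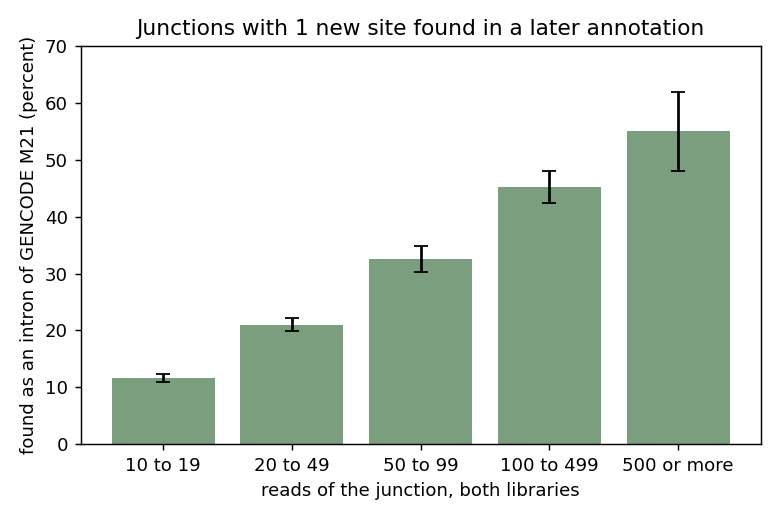
Percentage of junctions with 1 new splice site found as introns in GENCODE M21 (vertical axis) by reads of the junction in both libraries (horizontal axis); bars start at 0 and error bars are exact binomial 95% intervals, which cover counting error only. The share is 11.6% at 10 to 19 reads and 55.0% at 500 reads or more.

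By the motif flag, but not by reads, junctions with 1 new site stood between the other classes of the table. Among junctions with at least 10 reads, 156747 had both ends known, with a median of 211 reads, and 14406 had no known end, with a median of 20 reads as for the members. The motif flag was set for 99.7% of the former, 94.4% of the members and 47.9% of those with no known end. Members made up 8.76% of junctions but 0.890% of reads, against 97.9% of reads for junctions with both ends known and 1.21% for those with no known end. Among 4904 junctions that pair known ends anew, the median intron was 10658 bases, against 1384 for the members and 1338 for annotated introns.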

How the data were processed

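Polyadenylated, stranded RNA libraries of 1 group with 2 replicates were used. The authors deposited a junction table on mm9 with read counts per junction, summed over both libraries and given for each in the junction's name, a motif flag and a reproducibility score between libraries, per the file itself. They also deposited exon tables of Ensembl 65 and of assembled models, a gene table in RPKM, and gene tables on mm10 in TPM, per the file headers. The RPKM values carry no replicate label, so only their mean was used. For the aligner, its settings and the treatment of reads that fit several places, the status is: not given in the sources used here.

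From these, known ends, sides, distances (bases to the nearest known site of the same kind on the strand), places (the exon base next to the site), relative use and new exons were computed in Python 3.11.15 (numpy 2.4.6, pandas 2.3.3). Intervals used scipy 1.17.1 and figures matplotlib 3.10.9. Known borders were found in GENCODE M21 by the lengths of the adjoining intron and exon, unique within the gene, and a junction by its intron length from that border. No coordinates were converted. Of 6949 genes 6742 took a symbol from the gene name table. Transcripts that the exon table gives to several genes (83 of 95495) were used for sites but for no gene.

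With 1 group no test was made. Intervals are exact binomial at 95% and cover counting error only. TPM is given as mean and SD of 2 libraries. The members, gene lists and settings were chosen with earlier results of these data known. Named are the 25 genes with most member reads, the members with most reads on each side, the 10 of highest relative use with at least 100 reads (ties broken by reads), up to 4 genes per list, and the leading shifts of 3 and 4 bases. The new exons named, the limit of 300 bases, the 3-fold balance of flanking reads, the 5% limit for equal reads and some unflagged junctions were chosen after their values were seen. All 18 smooth muscle and all 11 superficial urothelium markers had at least 1 TPM in both libraries, and 10 of 12 basal ones, without Krt14 and Krt17. Endothelial (4 of 7 genes with a member), macrophage (3 of 7), adipocyte (4 of 6), skeletal muscle (2 of 3 measured) and nerve and glia lists (1 of 4, Uchl1) were also examined. Over all genes with an annotated junction of at least 10 reads the share was 45.5%. In the read classes of these lists' medians it was 76.6% for skeletal muscle and 53.3% for the others. 1 gene that the rule covers is not reported here, but counts over all genes include it. On simulated junctions shifted from annotated introns, all 399 were found on the right side, 390 at the planted distance and 9 nearer to another known site.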

Additional observations from a re-analysis of the deposited data

How the results depend on the processing

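The number of members followed the read minimum, with 8311 at 20 reads, 3320 at 50 and 32236 at 5, and ran from 7906 to 9878 when 1 library of the junction table was left out and 10 reads were asked of the other. The share of new 5′ sites was 51.3% at 50 reads and 49.7% with sites of the assembled models counted as known. The median distance was 138 bases with those sites, and 210 bases with flagged junctions alone, against 178 bases over all members. Relative use had a median of 5.03% against the most used annotated junction and ran from 4.19% to 4.58% when 1 library was left out. The mm9 gene table, on another scale, gave RPKM of 240.6 for Myh11, 204.3 for Myl6, 64.7 for Cfd, 5.95 for Tmem181a and 155.5 for Sprr2a3. Leaving out 1 replicate gave TPM of 1170 to 2113, 7003 to 7674, 313 to 677, 21.2 to 25.5 and 573 to 913. Myl6 thus stood above Myh11 by TPM but below it by RPKM, so the gene tables differed by more than scale. The reason was not tested. Of 53 alternative values 11 were numbers of members, of which 6 stayed within 1.5 times the reported number, and of the other 42 values 31 stayed within the interval or spread of the reported one. The motif and library alternatives were chosen after seeing the data. A restriction to protein-coding transcripts was not run, since the exon table gives no type. Depth limits rare junctions: at 10 to 19 reads each library gives few reads.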
